A study of Mus musculus with 6 samples.

Results

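In fetal mouse prospermatogonia, 559 TAF4b peaks lay at promoters where annotated transcripts of 2 protein-coding genes start in opposite directions. This arrangement is taken from the annotation, and transcription of the genes was not measured here. They are 559 of the 7861 intervals in the first TAF4b list, and of 75330 intervals in the 4 lists used. A peak was taken when its deposited class was promoter-TSS, when it overlapped a region of the first H3K4me3 list and no peak of the second TAF4b list, and when its centre lay within 500 bp of transcription start sites (TSSs) of 2 different coding genes, the minus-strand TSS to the left of the plus-strand TSS. No peak score, motif or region width entered this choice. The count depends on the TSSs used: every transcript of a coding gene counts here, and with only the 5′ end of each gene record 166 peaks qualified, with canonical transcripts 251. The 559 peaks fell on 524 gene pairs with 1045 genes, because 35 pairs held 2 peaks each and 3 genes belonged to more than 1 pair. Peaks of 1 pair share their target and are not independent. The comparison set was the 3536 peaks chosen in the same way whose window held TSSs of 1 coding gene only, called one-gene peaks below. A further 77 peaks had several coding genes in another arrangement, and 234 had no coding TSS in the window.

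CUT&RUN, in which an antibody directs a nuclease to cut out the DNA around its target, was performed with antibodies to TAF4b and to trimethylated lysine 4 of histone H3 (H3K4me3), and with a control IgG, in 2 replicates each. All 6 samples were from male embryos at E16.5 (embryonic day, from the plug), labelled Taf4b-wildtype and C57BL/6. The protocol states that the mated mice were homozygous for the Oct4-EGFP transgene of B6;129S4-Pou5f1tm2Jae/J, and that gonad cells were sorted by flow cytometry on GFP. The IgG libraries are not analysed here, so no comparison with antibody background was made, and no source used here says whether the replicates were separate embryos or pools.

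TFIID is the general transcription factor that binds core promoters and helps to place RNA polymerase II, and TAF4b is a subunit of it that is enriched in the gonads, where it stands beside or in place of its close relative TAF4. A bidirectional promoter is a short stretch of DNA, usually rich in CpG and poor in TATA boxes, that lies between the TSSs of divergent genes, each transcribed away from the other. Such promoters are common in mammals and are known for housekeeping genes of DNA repair, mitochondria and RNA metabolism.

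The sequences of 8 of these promoters are shown first as examples. The positions, motifs and gene groups below were counted over all 559 members. They are the 3 pairs with the highest TAF4b score (Rnf5/Agpat1, Sptbn4/Blvrb and Tmx2/Med19) and 5 pairs with genes of DNA repair, meiosis or basal transcription. Each is the part of the peak that lies between both TSSs and in no annotated exon, and 6 are intergenic; those of Tmx2/Med19 and Rad51c/Tex14 also fall in an intron of a longer transcript of Tmx2 or Rad51c. All are the plus strand of GRCm39, written 5′ to 3′, with the minus-strand gene named first. Capitals mark matches, on either strand, to the motifs described further on: the CCAAT box, the GC box, the ETS site and the CRE core, whose letters are given there.
Rnf5/Agpat1, chr17:34822733-34822875: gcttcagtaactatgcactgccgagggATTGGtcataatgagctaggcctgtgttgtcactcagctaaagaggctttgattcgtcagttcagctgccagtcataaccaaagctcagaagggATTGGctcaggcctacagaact
Sptbn4/Blvrb, chr7:27147185-27147274: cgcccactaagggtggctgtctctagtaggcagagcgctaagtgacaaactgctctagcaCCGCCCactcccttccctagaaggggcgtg
Tmx2/Med19, chr2:84508519-84508637: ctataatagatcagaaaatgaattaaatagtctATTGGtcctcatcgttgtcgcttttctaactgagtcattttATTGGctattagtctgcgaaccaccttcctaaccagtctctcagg
Mcm4/Prkdc, chr16:15455291-15455433: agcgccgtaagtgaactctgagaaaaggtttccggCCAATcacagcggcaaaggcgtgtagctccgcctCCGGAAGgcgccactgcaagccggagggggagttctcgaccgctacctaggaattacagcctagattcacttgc
Hscb/Chek2, chr5:110987690-110987802: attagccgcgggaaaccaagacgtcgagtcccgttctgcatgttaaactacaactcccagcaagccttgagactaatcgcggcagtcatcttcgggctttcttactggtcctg
Rad51c/Tex14, chr11:87295353-87295420: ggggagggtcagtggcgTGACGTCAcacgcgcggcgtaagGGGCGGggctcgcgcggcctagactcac
Brca1/Nbr1, chr11:101442782-101442872: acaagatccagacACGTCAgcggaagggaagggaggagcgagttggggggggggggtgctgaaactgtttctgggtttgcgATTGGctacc
Psmb1/Tbp, chr17:15720023-15720149: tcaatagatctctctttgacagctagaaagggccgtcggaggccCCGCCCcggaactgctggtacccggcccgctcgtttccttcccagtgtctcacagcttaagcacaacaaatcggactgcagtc

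Of the 3 highest-scoring promoters, Rnf5/Agpat1 and Tmx2/Med19 carried 2 CCAAT matches each, which read ATTGG when the match is on the minus strand, and Sptbn4/Blvrb carried a GC box and no CCAAT match. Mcm4/Prkdc carried a CCAAT box and an ETS site. The stretch of Hscb/Chek2 was 1 of 4 with no match to any motif, among 18 exon-free stretches of at least 60 bases in named members. In the 200 bp window around its peak centre, used for the shares below, Hscb/Chek2 had a CCAAT match. Rad51c/Tex14 carried CRE cores on both strands that overlap in the palindrome TGACGTCA. These are matches of letters in a window and were not tested as binding sites.

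The first question was how large a share of promoter intervals lay at bidirectional promoters with each antibody. Of promoter-TSS peaks in the TAF4b lists, 13.2% (758 of 5756) in replicate 1 and 18.7% (140 of 748) in replicate 2 had the divergent coding arrangement. The H3K4me3 lists held 7.29% (981 of 13454) and 12.1% (125 of 1037). Both TAF4b shares were above both H3K4me3 shares, with means of 15.9% ± 3.92 (SD, n = 2) against 9.67% ± 3.37 (SD, n = 2). The difference of 6.27 percentage points had a two-sided exact permutation p of 0.3333 with n = 2 and 2, the smallest p that this design can give, so a call at 0.05 was out of reach. The replicate 2 lists were far shorter than the replicate 1 lists, and within a replicate number the difference was 5.88 and 6.66 percentage points. With only the 5′ end of each gene record as a TSS it was 2.67, and with canonical transcripts 4.15. These are shares of intervals: H3K4me3 regions are wide, and their class depends on where their centre falls.

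**Figure D1:**
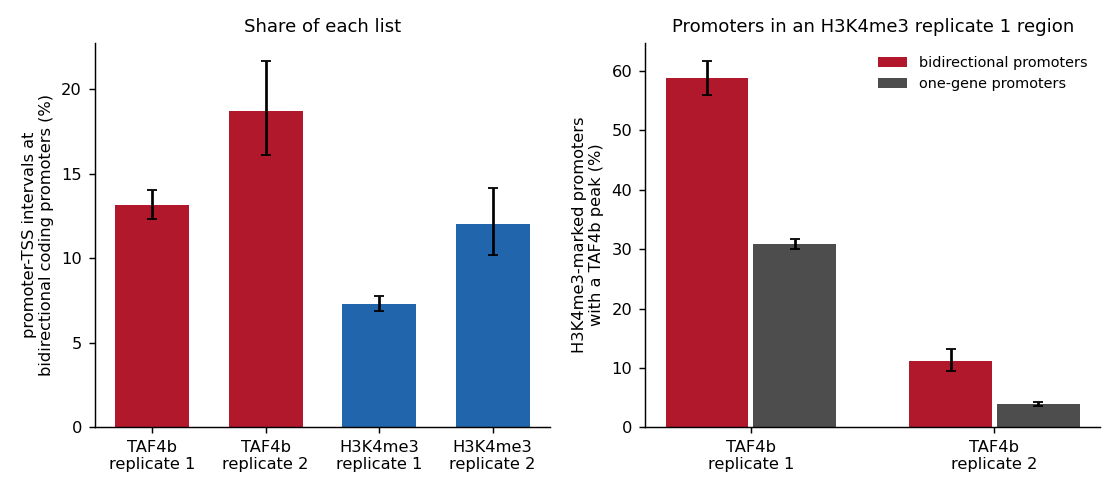
Left, the percentage of promoter-TSS intervals in each list (bars; whiskers, 95% Wilson intervals) that lie at bidirectional coding promoters; the TAF4b lists stand at 13.2% and 18.7% and the H3K4me3 lists at 7.29% and 12.1%. Right, the percentage of H3K4me3-marked promoters with a TAF4b peak, for bidirectional and one-gene promoters and each TAF4b replicate, with the bidirectional bar higher in both.

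Counted from the promoters rather than from the peaks, bidirectional promoters held TAF4b more often. A promoter counted as in an H3K4me3 region when one came within 500 bp of the midpoint of the pair or of the single TSS. Among 1121 bidirectional promoters in an H3K4me3 replicate 1 region, 58.8% (659; 95% Wilson interval 55.9 to 61.6) had the centre of a TAF4b replicate 1 peak within 500 bp of the midpoint of the pair. Among 11243 one-gene promoters so marked, 30.9% (3472; 30.03 to 31.74) had one within 500 bp of the TSS, and the share over all 12364 marked coding promoters was 33.4%. In TAF4b replicate 2 the shares were 11.2% (125) and 3.94% (443), beside 4.59% over all marked promoters. Among promoters in a region of the short second H3K4me3 list, 67.4% of 135 bidirectional and 40.3% of 889 one-gene promoters held a TAF4b replicate 1 peak. There the TAF4b replicate 2 shares were 11.9% (16; 7.43 to 18.4) and 7.20% (5.68 to 9.09), whose intervals overlapped. Wilson intervals here and below cover counting error only. A pair holds the starts of 2 genes and a one-gene promoter of 1, so the shares are per promoter and not per gene.

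Bidirectional promoters were also marked by H3K4me3 more often. A replicate 1 region came within 500 bp of the midpoint in 92.9% of 1207 annotated pairs. Such a region came within 500 bp of the TSS in 59.1% of 19017 one-gene promoters. The score of the mark differed too, and TAF4b shares are given for 3 equal classes of the H3K4me3 score of the region. From the lowest to the highest class, 53.9%, 56.8% and 63.2% of bidirectional promoters held a TAF4b replicate 1 peak, against 26.7%, 34.6% and 31.2% of one-gene promoters. The bidirectional share was the higher one in each of the 3 classes, and the part of H3K4me3 in the TAF4b difference was not tested.

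The condition of no overlap with the second TAF4b list removed peaks of high score more often than peaks of low score. Of 758 promoter peaks with the divergent arrangement, 86 lay outside H3K4me3 regions and 113 of the remaining 672 met a replicate 2 peak, which leaves the 559. That share of 16.8% (14.2 to 19.8) compares with 10.8% (9.85 to 11.8; 427 of 3963) for one-gene peaks and with 11.3% for all promoter peaks in H3K4me3 regions; since the rule used this overlap, it is a description. Peaks that were found again had a median score of 31.8, against 17.9 for the members. In 4 equal classes of the replicate 1 score, from low to high, the shares found again were 0 of 100 peaks (a limit of 3 counts allows up to 3%, and the Wilson upper bound is 3.70%), 1.84%, 11.3% and 37.8% for divergent peaks, and 0.21%, 1.84%, 8.09% and 32.3% for one-gene peaks. Absence from the short second list was therefore near complete among low scores in both classes, and it does not show that TAF4b was absent there.

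The score in the lists is the authors' own, on a scale that no source used here states, and it was compared only within the first TAF4b list. Scores of the 559 members ran from 6.95 to 50.1 with a median of 17.9 (16.9 to 18.9, order-statistic interval of the median). Their quartiles were 12.9 and 24.8. One-gene peaks ran from 6.45 to 64.5 with a median of 16.4 (15.9 to 16.4), a ratio of medians of 1.09 (1.03 to 1.19). Among peaks at or above the median score of the list the ratio was 1.05, with an interval (0.977 to 1.12) that includes 1, and in a 250 bp window, with protein-coding transcripts or with H3K4me3 covering at least 50% of the peak the interval began at 1. Before the replicate 2 condition, which removed unequal shares of both sets, the medians were 19.9 and 17.4, a ratio of 1.14. The distributions overlapped almost entirely, and 66.9% of members against 59.05% of one-gene peaks scored at or above the median of the whole list. The focus ratio, a deposited fraction that describes how concentrated the tags of a peak are, had medians of 0.640 and 0.642. Peaks of a single library give no replicate error for these differences.

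**Figure D2:**
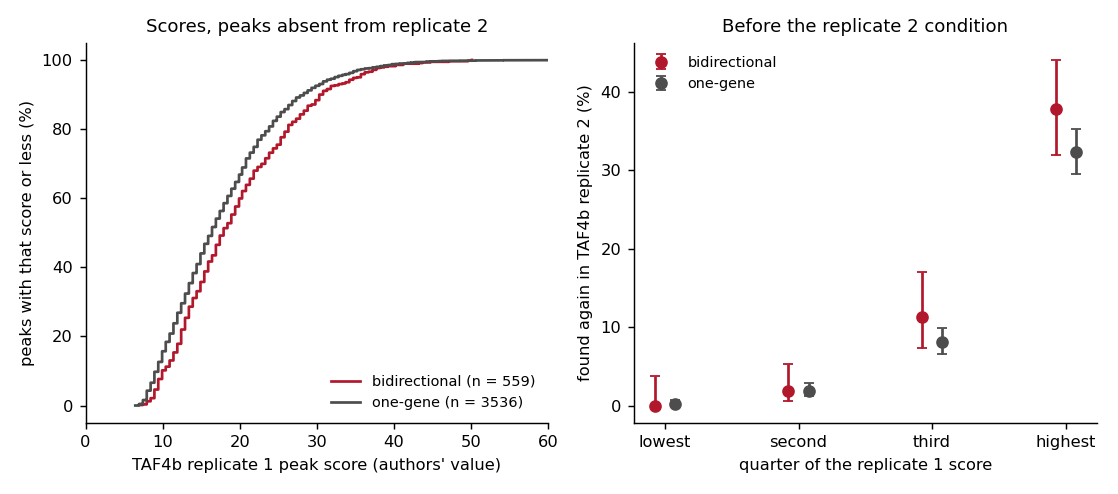
Left, cumulative percentage of peaks by TAF4b replicate 1 score (authors' value) for the 559 bidirectional and 3536 one-gene peaks; the bidirectional curve lies slightly to the right, with medians of 17.9 and 16.4. Right, percentage of promoter peaks found again in TAF4b replicate 2 by class of the replicate 1 score (4 equal classes), before the replicate 2 condition was applied (points, with 95% Wilson intervals); both sets rise from near 0 in the lowest class to above 32% in the highest.

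The highest-scoring member, at 50.1 and rank 39 among all 7861 peaks, lay between Rnf5, which encodes a membrane-bound ubiquitin ligase, and Agpat1, an enzyme of phospholipid synthesis. Its TSSs stood 468 bp apart, and the centre was 111 bp upstream of the Rnf5 TSS and 357 bp upstream of that of Agpat1. The second, at 49.6, lay between Sptbn4, a spectrin, and Blvrb, a biliverdin reductase, 19 bp upstream of the Blvrb TSS. Tmx2/Med19 followed at 47.1, where Tmx2 is a thioredoxin-related membrane protein and Med19 a Mediator subunit, with the centre 104 and 175 bp upstream of the respective TSSs. These 3 peaks all sat in the gap between the starts.

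The rest of the 10 highest were Ormdl2/Sarnp (44.7), Gpc2/Stag3 (43.7), Txndc16/Gpr137c (43.2), Aldh6a1/Lin52 (41.2), Med29/Paf1 (41.2), Ttc9c/Hnrnpul2 (40.2) and Usp5/Cdca3 (40.2). Stag3 is the meiotic cohesin subunit, Lin52 belongs to the MuvB complex of cell cycle transcription, and Paf1 names an elongation complex of RNA polymerase II. In Ormdl2/Sarnp, Gpc2/Stag3 and Aldh6a1/Lin52 the centre lay not in the gap but 51, 31 and 20 bp into Sarnp, Stag3 and Lin52. Of the 10, Usp5/Cdca3 alone also met a region of the second H3K4me3 list.

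The distance between the paired TSSs is capped by the rule, which takes both within 500 bp of the centre. Where a window held several such pairs, the one nearest to the centre was used, which also favours short distances. The median distance was 80 bp (73 to 88), its quartiles were 42 and 145 bp, and it ranged from 1 to 831 bp. The smallest distance of 1 bp was found at 5 member peaks, among them Calr3/1700030K09Rik, E4f1/Pgp and Ranbp1/Trmt2a, and the largest at Slc25a23/Crb3 (831 bp), Nlgn2/Tmem256 (711 bp) and Jrkl/Ccdc82 (667 bp). These distances use every annotated transcript of a coding gene. With 1 canonical transcript per gene the starts of the same pairs were a median of 239 bp (207 to 279) apart regardless of order. The upper quartile was 640 bp and the largest distance 141324 bp. In 35.8% of peaks (200 of 559) the canonical plus-strand TSS lay to the left of the canonical minus-strand TSS. That is the reverse of the divergent order, and overlap of the transcripts was not measured. The windows of members held a median of 15 annotated coding TSSs, against 6 for one-gene peaks.

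Peak centres lay between the paired TSSs in 60.5% of members (338; 56.4 to 64.4). The other 221 lay outside the gap, with a median of 10 bp past the nearer TSS, and divided into 115 downstream of the minus-strand and 106 downstream of the plus-strand TSS. Centres were nearer to the minus-strand TSS in 52.8% of members (48.6 to 56.9), about as often as to the plus-strand TSS. The centre stood at a median of 5 bp upstream of the nearer TSS (position -5) and 79 bp upstream of the farther one (position -79). One-gene peaks stood farther from their TSS, at a median position of -23, and 73.8% of them lay upstream of it. A member is measured to the nearer of TSSs of 2 genes, and its window held more TSSs; the part of this in the shorter distance was not tested.

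**Figure D3:**
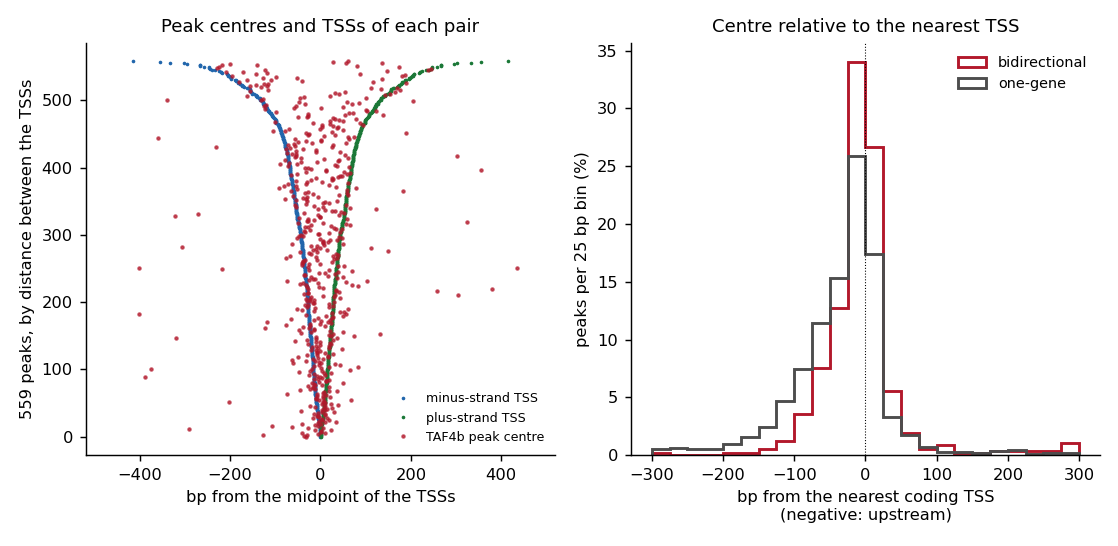
Left, each of the 559 peaks as a row ordered by the distance between the TSSs, with the minus-strand TSS (blue), the plus-strand TSS (green) and the peak centre (red) in bp from the midpoint; most centres fall inside or close to the funnel of TSSs. Right, percentage of peaks per 25 bp bin by position relative to the nearest coding TSS (negative is upstream), where bidirectional peaks are closer to the TSS (median -5) than one-gene peaks (median -23).

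Position and score varied with the spacing of the pair. At spacings up to 50 bp (172 peaks) the median score was 16.4 and 40.1% of centres lay in the gap. From 50 to 100 bp (150 peaks) the values were 16.9 and 52.7%, from 100 to 200 bp (151 peaks) 20.8 and 79.5%, and above 200 bp (86 peaks) 17.9 and 81.4%. A wider gap also holds more positions, and the part of this in the rising share was not tested. The median score of 20.8 (19.4 to 23.3) at 100 to 200 bp was the highest of the 4 bins, and its interval did not overlap those of the shorter spacings (14.9 to 17.4 and 15.4 to 18.9) but did overlap that above 200 bp (16.4 to 24.3). Peaks in the gap had a median score of 19.9 (18.4 to 20.8), above the 16.4 (15.4 to 17.4) of those outside.

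Among the 35 pairs with 2 peaks, Zranb3/R3hdm1 and Cfap119/Rnf40 held the highest score, 35.7, and a second peak of 19.4 each. Cbx5/Hnrnpa1 had peaks of 34.7 and 18.9, the stronger in the gap 61 bp upstream of an Hnrnpa1 TSS. Cbx5 encodes the heterochromatin protein HP1 alpha and Hnrnpa1 an RNA-binding protein. At Fbxl12/Ubl5 a peak of 25.3 lay 17 bp into Ubl5, and one of 11.9 lay 2 bp upstream of another Ubl5 TSS. In these 4 pairs the peaks of a pair were assigned to different combinations of annotated TSSs of the same genes.

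At the edge of the window, the members whose farther TSS was most distant were Timm21/Fbxo15 (496 bp, score 22.3), Nup88/Rpain (488 bp, score 13.4) and Ndufa5/Asb15 (486 bp, score 28.8). Just outside were Pced1a/Vps16 at 504 bp with a score of 9.93, Tirap/Srpra at 508 bp with 11.4 and Wdr12/Carf at 511 bp with 12.9. The 3 inside and the 3 outside are neighbours on the distance scale and are given without a test.

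H3K4me3 regions at members were wide compared with the spacing of the starts. The overlapping region of the first H3K4me3 list had a median width of 1627 bp at members and 1502 bp (1483 to 1529) at one-gene peaks, a difference of medians of 125 bp (49 to 245). Among peaks at or above the median TAF4b score the difference was 97 bp, with an interval (-4 to 246) that includes 0. It spanned both TSSs in 94.99% (531) of members; the rule asked for an overlap with the peak, which nearly fixes this at such widths. It reached a median of 749 bp (719 to 784) past the minus-strand TSS into that gene and 799 bp (766 to 840) past the plus-strand TSS into the other. At one-gene peaks it reached 842 bp downstream of the TSS and 672 bp (661 to 685) upstream. Arms of pairs are sorted here by strand and those of one-gene peaks by gene direction, so these medians do not compare symmetry. Sorted by length, the longer arm was 963 bp (936 to 992) at members and 960.5 bp (949 to 974) at one-gene peaks, and the shorter 570 bp (523 to 598) and 526 bp (513 to 538). The shorter arm exceeded 500 bp on both sides in 57.1% and 52.9%.

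One-gene peaks were divided by what else starts nearby. In 34.2% (1211) a noncoding transcript started in the divergent direction, and there the upstream arm of H3K4me3 was 753 bp long, against 630 bp (608 to 647) at the 60.04% (2123) with no other gene starting in the window and 633 bp (576 to 698) at the 5.71% (202) with another noncoding start. The median TAF4b score was 15.9 at TSSs that stood alone, 15.4 with another noncoding start, 17.4 with a divergent noncoding transcript and 17.9 at coding pairs. These groups overlapped over most of their range and were not compared by a test.

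The widest H3K4me3 regions were at Tshz1/Ptgr3 (4774 bp), Peg3/Usp29 (3922 bp) and Fbxl12/Ubl5 (3907 bp). Peg3 and Usp29 are paternally expressed imprinted genes that share a differentially methylated promoter, and their region reached 3186 bp into Peg3 and 627 bp into Usp29. Tshz1, a zinc finger transcription factor of development, shared its promoter with Ptgr3, an enzyme of prostaglandin metabolism, and the TAF4b peak there had a low score of 9.43. TAF4b peaks in the regions of Peg3/Usp29 and Fbxl12/Ubl5 scored 19.9 and, for the pair of peaks at Fbxl12/Ubl5, 25.3 and 11.9, so these widest regions held scores on both sides of the members' median.

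The H3K4me3 score of the region had a median of 107.3 at members and 96.9 (93.9 to 98.4) at one-gene peaks. In the 3 classes of that score, from low to high, the median TAF4b score of members was 16.4, 17.4 and 19.4, against 14.9, 16.4 and 17.9 for one-gene peaks. The second H3K4me3 list, which the rule did not use, met 10.4% of members (58 of 559) and 8.40% of one-gene peaks (297), beside 8.69% of all 4406 selected peaks. The difference of 1.98 percentage points had an interval from -0.48 to 4.91, so the share at members was not distinguishable from that at one-gene peaks.

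**Figure D4:**
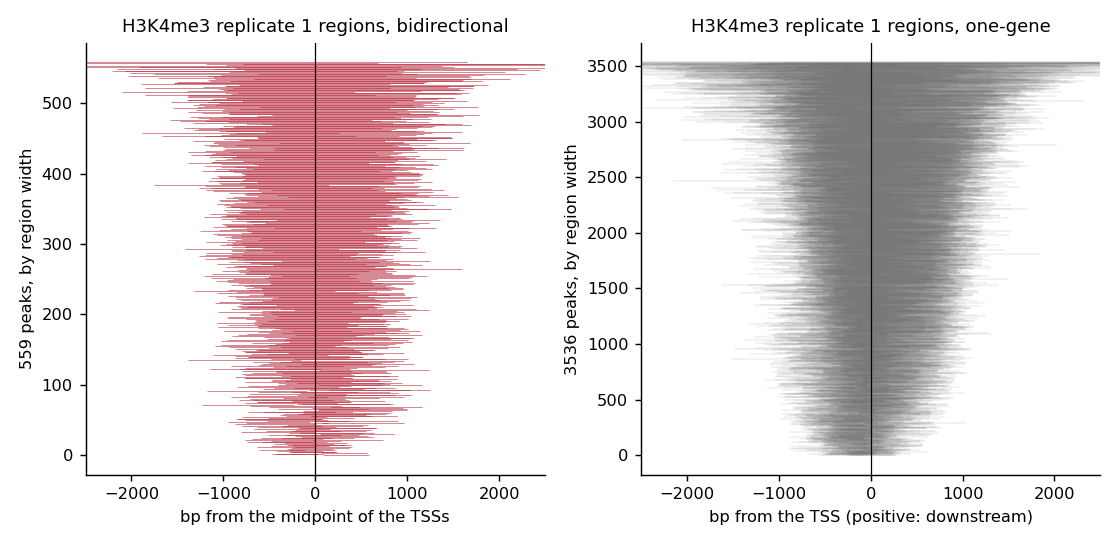
H3K4me3 replicate 1 regions (1 line each, ordered by width) around the midpoint of the paired TSSs for 559 bidirectional peaks (left) and around the TSS of 3536 one-gene peaks (right), in bp. At pairs, whose sides are ordered by strand, regions reach medians of 749 and 799 bp past the TSSs; at single TSSs, whose sides are ordered by gene direction, they reach 842 bp downstream and 672 bp upstream.

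The deposited class column names 1 transcript per peak, and so 1 gene of each pair. It named the minus-strand gene in 50.8% of members, the plus-strand gene in 47.8% and another gene in 1.43%. In 47.6% of members the named gene was the one with the nearer TSS by all annotated transcripts. Naming 1 gene per peak leaves many second genes unnamed by design, since only 35 of 524 pairs held 2 member peaks. The whole first TAF4b list names 5391 genes, beside 21751 coding genes in the annotation. The second gene of the pair was named by no promoter peak of the first TAF4b list in 90.3% of members (505; 87.6 to 92.5), which came to 488 genes beside the 5391 genes that this list names. Examples are Prkdc, the catalytic subunit of DNA-dependent protein kinase, at the peak assigned to Mcm4, a subunit of the replicative helicase, and Chek2, the DNA damage checkpoint kinase, at the peak assigned to Hscb, a cochaperone of iron-sulfur cluster assembly. Brca1 stood in the same position at the peak assigned to Nbr1, an autophagy receptor, as did Rad51c, a recombinase paralogue, at the peak assigned to Tex14, a protein of germ cell intercellular bridges.

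Stag3, at the peak assigned to Gpc2, was another such partner although the centre lay 31 bp into Stag3. A second deposited column gives the nearest promoter, and it named the same gene as the class column in 50.4% of members, against 93.6% of one-gene peaks. Both columns together named the 2 genes of the pair in 47.9% of members, and 228 genes of member pairs were named in neither column of any peak.

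Gene groups were counted from lists chosen with earlier results of these data known, and carry no test. Over all 21751 coding genes 4.8% (1045) were in a member pair. DNA repair and replication had 22 of 112 genes (19.6%) in member pairs, RNA processing 30 of 161 (18.6%), transcription and TFIID 25 of 146 (17.1%), and mitochondrial proteins 38 of 249 (15.3%). Cell cycle and centrosome had 23 of 184 (12.5%), proteasome and ubiquitin 21 of 178 (11.8%), and translation and tRNA 21 of 211 (9.95%). In all, 183 listed genes were in member pairs, which fell to 60 with gene 5′ ends and 90 with canonical transcripts. These lists are also rich in bidirectional promoters in the annotation alone: 36.6% of the DNA repair list, 29.8% of RNA processing and 33.7% of mitochondrial proteins start at one, against 10.9% of all coding genes. Of the genes so annotated, 53.7%, 60.4% and 44.0% were in member pairs, beside 43.1% of all such genes. The share was 60% for proteasome and ubiquitin, 56.8% for transcription and TFIID, 52.3% for cell cycle and centrosome and 46.5% for translation and tRNA.

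The DNA repair genes with the highest scores were Mcm4 and Prkdc (34.2), Chek2 (33.3), Rpa3, a subunit of the single-strand DNA binding protein RPA (30.3), Xpc, a sensor of nucleotide excision repair (26.3), and Rad51c and Ddb1, a damaged DNA binding subunit (25.3 each). The Mcm4/Prkdc peak lay 98 bp upstream of Mcm4 and 336 bp upstream of Prkdc, and its H3K4me3 region reached 686 and 589 bp into them. Brca1/Nbr1 scored 23.3, with the centre 20 bp upstream of Brca1 and 161 bp upstream of Nbr1.

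In the transcription list Tmx2/Med19 (47.1) and Med29/Paf1 (41.2) led, with Polr1h/Polr1has (36.2), Dtl/Ints7 (34.2), Gtf3c1/Katnip (29.8) and Serac1/Gtf2h5 (25.8) after them. Polr1h is an RNA polymerase I subunit, Polr1has is in the list by its symbol only, Ints7 an Integrator subunit, Gtf3c1 the largest TFIIIC subunit and Gtf2h5 a TFIIH subunit. Of TFIID itself and its partners, Tbp, the TATA-binding protein, shared its promoter with the proteasome gene Psmb1 at a score of 19.9, with the centre 81 bp upstream of Psmb1 and 56 bp upstream of Tbp. Taf11, another TFIID subunit, was in a member pair as well.

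Among RNA processing genes, Hnrnpul2 (40.2), Prpf4, a tri-snRNP protein (37.7), Hnrnpa1 (34.7), Snrpd2, a core Sm protein (32.8), and the splicing factor gene Srsf7 (28.8) were among the highest scores. Mitochondrial genes were led by Mrpl47/Ndufb5 at 30.8, which pairs a mitoribosomal protein with a complex I subunit, and then Mrpl51 and Ndufa5 (28.8 each), Ndufa2 and Tfb2m (27.8 each) and Mrpl37 (26.3). In the translation list Eif5a (25.8), Rpl4 (24.3), Rpl37 (22.3), Rpl18 (21.8) and Sars2 (19.4) were among the highest. Cdc26 of the anaphase-promoting complex shares the promoter of Prpf4, and the condensin gene Ncapd2 that of Mrpl51, so that each of these peaks counts in a pair of lists. Both genes of a pair belonged to the same list in 5 pairs: Mcm4/Prkdc, Mrpl47/Ndufb5, Sdhd/Timm8b, Hars1/Hars2 and Polr1h/Polr1has. At least 1 gene of any list was present in 161 pairs.

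Of 60 coding genes in the germ cell list, 2 (3.33%, beside 4.8% of all coding genes) were in member pairs, namely Stag3 (43.7) and Tex14 (25.3), while 24 were at one-gene peaks. In the annotation 4 of the 60 start at bidirectional promoters, so 50% of these were in member pairs, beside 43.1% of all such genes. Of 34 genes in the list for somatic cells of the testis, 0 were in member pairs, 0 start at annotated bidirectional promoters and 2 were at one-gene peaks. Beside the sorted population that the labels give, TAF4b peaks at one-gene promoters reached 40% of germ cell list genes, 5.88% of somatic list genes (2 genes) and 15.6% of all coding genes, with no test. TAF4b peaks at one-gene promoters also reached 38.8% of the proteasome and ubiquitin list, 34.8% of RNA processing, 33.6% of transcription and TFIID and 33.2% of translation and tRNA genes.

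Sequence features were read in 200 bp of GRCm39 around each centre, on both strands, for 9 short motifs. GC content was 63.5% at members and 65% (64.5 to 65) at one-gene peaks. The interval of this difference of medians (-2.5 to -0.5 points) reached 0 in a 250 bp window, in 300 bp motif windows and among peaks at or above the median score. The ETS site CCGGAAG, bound by ETS family factors, was in 25.6% (143; 22.1 to 29.4) of members, 17.7% (16.48 to 19.00) of one-gene peaks, 17.4% of all promoter-TSS TAF4b replicate 1 peaks and 8.51% of windows at the 5′ ends of all coding genes. In 3 equal classes of GC content, from low to high, it was in 25.6%, 28.2% and 22.1% of members, against 19.7%, 19.9% and 13.7% of one-gene peaks. One-gene peaks with a divergent noncoding transcript held it in 19.7% and those standing alone in 16.9%. With only the 5′ end of each gene record as a TSS, the difference between members and one-gene peaks fell from 7.88 to 5.13 percentage points, with an interval (-0.92 to 12.3) that includes 0. By strand of the genome, 61 windows of members had the site only on the plus strand, 63 only on the minus strand and 19 on both. Each pair has a gene on either strand, so these counts do not measure orientation relative to a gene.

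The YY1 core AAGATGG, bound by YY1, was in 7.69% (43; 5.76 to 10.2) of members, 4.55% (3.91 to 5.29) of one-gene peaks, 4.93% of all promoter peaks and 4.45% of coding 5′ ends. Among peaks at or above the median score of the list the difference between members and one-gene peaks was 0.502 percentage points, against 3.14 over the whole list, and with canonical transcripts its interval (-0.08 to 6.71) includes 0. Of its 45 matches 8 (17.8%) lay between the TSSs, while 34% of E-box, 42.2% of ETS and 63.8% of CCAAT matches did; positions were not tested. Of the 37 YY1 matches inside a gene of the pair, 30 read in the direction of that gene and 7 against it. For the ETS site those counts were 60 and 44, for the GC box 206 and 95, for the CRE core 30 and 29, and for the CCAAT box 67 and 86.

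The CCAAT box, bound by NF-Y, was in 44.4% (40.3 to 48.5) of members, 40.9% of one-gene peaks, 42.1% of all promoter peaks and 29.8% of coding 5′ ends. Its difference of 3.47 percentage points between members and one-gene peaks was 17.8 (10.01 to 25.2) when only the 5′ end of each gene record counted as a TSS, and 12.3 (5.87 to 18.6) with canonical transcripts, so both of these intervals exclude 0. The GC box GGGCGG, bound by SP family factors, was in 63.0%, 65.7%, 65.9% and 35.2% of the same windows. The NRF1 core GCATGCGC was in 6.44%, 5.60%, 5.96% and 2.71%, and the CRE core TGACGT in 13.4%, 13.9%, 14.0% and 6.84%. The TATA box TATAAA was in 2.15% of members, 2.91% of one-gene peaks, 2.90% of all promoter peaks and 8.36% of coding 5′ ends. The E-box CACGTG, a palindrome, was in 8.05%, 10.4%, 10.2% and 5.52%. The letters ACTACAATT, called GFY start here, were in 1.79%, 1.16%, 1.11% and 0.326%. For these 7 motifs the 95% intervals of members and one-gene peaks overlapped, whereas for the ETS site and the YY1 core they did not. Under single alternatives the difference also excluded 0 for the NRF1 core (3.81, 0.08 to 9.31, with gene 5′ ends) and the E-box (-3.53, -5.74 to -0.74, in a 250 bp window). No replicate error stands behind any of these intervals. No motif letters contain those of another, but matches can share bases where they abut.

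**Figure D5:**
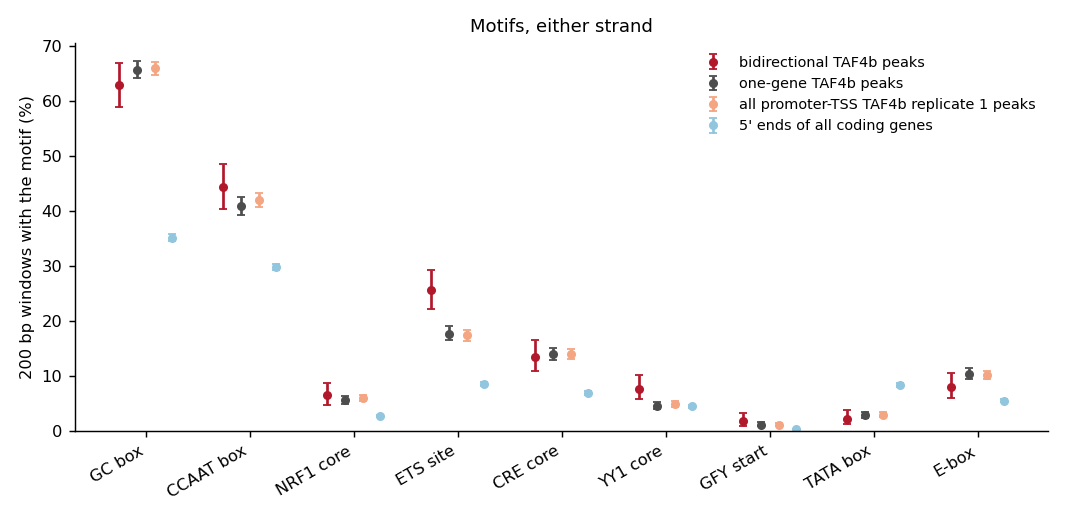
Percentage of 200 bp windows with each of 9 motifs on either strand (points, with 95% Wilson intervals), for bidirectional TAF4b peaks, one-gene TAF4b peaks, all promoter-TSS TAF4b replicate 1 peaks and the 5′ ends of all coding genes. The ETS site stands higher at bidirectional peaks (25.6%) than at one-gene peaks (17.7%), and the TATA box lower at all TAF4b peak sets than at coding 5′ ends (8.36%).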

How the data were processed

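The submitters' processing notes name bcl2fastq 2.20, Trim Galore 0.5.0, FastQC 0.11.5, Bowtie2 2.3.0, SAMtools 1.9 and HOMER 4.10, and the genome GRCm39, without saying which step made which list. Per the file headers, H3K4me3 regions were annotated against GRCm39 and Ensembl 103. The TAF4b headers name no build, and 99.2% of the promoter-TSS transcripts of replicate 1 were found in GENCODE M39, and GRCm39 was used because the deposited distance to the TSS lay within 1 bp of that computed on it for 57.9% of 7768 peaks. The deposited peak score is used as the authors gave it, the focus ratio is the fraction the authors deposited, and the other columns deposited were coordinates and annotation. The peak caller's settings and the read depth are not given in the sources used here, so no depth stands behind a peak.

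TSSs and exons came from GENCODE M39, bases from GRCm39, read with pysam 0.24.0 in Python 3.11.15 (pandas 2.3.3, numpy 2.4.6, scipy 1.17.1). An overlap needed 1 bp, and peaks were read as 1-based and inclusive. H3K4me3-marked promoters were found from the 5′ end of each coding gene record. A region within 500 bp of that end, or of the midpoint of a pair, counted as a mark. The 4 score classes were taken over all promoter peaks in H3K4me3 regions. Shares have Wilson intervals and medians order-statistic intervals, at 95%, and neither is a replicate error. Differences of shares have Newcombe intervals built from the Wilson limits. Differences and ratios of medians have brackets from opposite ends of the 2 median intervals, which are wider than a 95% interval. Classification, overlap and interval functions were tested on simulated data. The members, motifs and gene lists were chosen with earlier results of these data known. Members named are the 10 of highest score, up to 6 per gene list by score, the 3 at each extreme of TSS distance, the 3 of widest H3K4me3, the 3 on either side of the window limit, and pairs with 2 peaks. The 8 sequences, Taf11, Sdhd/Timm8b and the 4 pairs shown among those with 2 peaks were picked after their values were seen. Some genes that the rule names are not reported here. Gene lists were matched partly by symbol stems, so a list can hold a gene of another role. Alternatives covered the window, the set of transcripts, the score and the motif window.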

Additional observations from a re-analysis of the deposited data

How the results depend on the processing

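Of 115 alternatives to the values that answer a comparison, 96 stayed close to the value reported, 19 moved and 0 reversed; of 99 alternatives to single motif differences, 93 stayed close, 6 moved and 0 reversed. Close means inside the interval of the reported value (for counts within 1.5 times, for the antibody difference the same sign), and reversed means a change of sign where that interval excludes 0. Signs did change in 9 alternatives of 3 motif differences whose interval included 0, 7 of them of the CRE core, and the NRF1 core and the GFY start turned once each. Most movement came from which transcripts count as starts. With the 5′ end of each gene record only, 166 peaks were bidirectional, 51.2% of centres lay between the TSSs, GC content was lower by a median difference of -3 points, and 60 listed genes, against 183, were in pairs. With Ensembl canonical transcripts only, an alternative chosen after seeing the data, these were 251 peaks, 53.0%, -3 points and 90 genes, and the second gene was unnamed in 94.8%. The median TSS distance was 115 bp with canonical and 96 bp with protein-coding transcripts, 72.5 bp in a 250 bp window, 89.5 bp in a 1000 bp window and 94 bp for peaks at or above the median score. The difference in TAF4b share between bidirectional and one-gene H3K4me3-marked promoters, 27.9 percentage points, was 23.5 in a 250 bp window, 35.4 with gene 5′ ends, 34.1 with canonical transcripts, 22.8 with peaks at or above the median score and 7.21 with the second TAF4b list. The CCAAT difference, 3.47 percentage points, was 17.8 with gene 5′ ends and 12.3 with canonical transcripts, the ETS difference 5.13 (-0.92 to 12.3) with gene 5′ ends against 7.88, and the YY1 difference 0.502 for peaks at or above the median score and 2.70 (-0.08 to 6.71) with canonical transcripts against 3.14. When promoters were placed at canonical TSSs, also chosen after seeing the data, the TAF4b difference was 28.1.

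The difference between antibodies in the bidirectional share ran from 5.88 to 6.66 percentage points when 1 replicate number was left out; it was 2.67 with gene 5′ ends, 4.15 with canonical transcripts, and from 5.44 to 7.60 under the other settings. With the replicate block it was 6.27, with an exact permutation p of 0.5, the smallest possible with 2 pairs; the numbers are shared in the labels only. The short second lists and an unknown depth limit what absence from them can show.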
